A study of Mus musculus with 12 samples.

Results

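Kainate receptors are tetrameric glutamate-gated channels, and mice have 5 genes for their subunits, Grik1 to Grik5, and 2 genes for the auxiliary proteins that join them, Neto1 and Neto2. These 7 genes were chosen by their symbols. All 7 were among the 24079 genes counted and among the 17823 genes tested. The study compared ribosome-bound mRNA of hippocampal CA1 pyramidal cells between 6 wild-type (WT) and 6 Fmr1 knockout (KO) libraries, to find mRNAs whose translation changes when the RNA-binding protein FMRP is lost. Each library was a biological replicate made from a pool of 4 to 6 mice. All mice carried Wfs1-CreERT2, a tamoxifen-inducible Cre driven by Wfs1, and RiboTag, a Cre-dependent HA tag on the ribosomal protein Rpl22. The KO mice were in addition Fmr1-/y (the labels spell the gene Frm1). Per the methods of the study, mice were 2 to 6 months old and received tamoxifen at 100 mg/kg on 3 days, 1 week before dissection. Tagged ribosomes were immunoprecipitated from whole hippocampus, so the cell type rests on where the Wfs1 driver is active and on how clean the precipitation was. Input fractions were not analysed here, and all values are levels within the precipitate.

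GluK1, GluK2 and GluK3, made from Grik1, Grik2 and Grik3, can form channels by themselves, while GluK4 and GluK5, made from Grik4 and Grik5, bind glutamate with high affinity but need a partner from the first group. Neto1 and Neto2 are single-pass membrane proteins with CUB domains that slow the closing of the channel and affect where it goes. In hippocampus, kainate receptors are best known from mossy fibre synapses onto CA3 cells and from interneurons, and in CA1 pyramidal cells they also reduce the slow afterhyperpolarization through G proteins.

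The 5 subunit mRNAs share the coding stretch of the channel pore. It is shown because it holds the glutamine codon (capitals, CAG) that ADAR enzymes can recode to arginine in Grik1 and Grik2. It also shows how alike the subunits are in this stretch, which does not stand for the whole transcripts. Each line gives 60 coding bases of the GENCODE vM21 reference on GRCm38, 5′ to 3′ in the sense of the mRNA.
Grik1: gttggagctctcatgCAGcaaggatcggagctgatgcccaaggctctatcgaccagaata
Grik2: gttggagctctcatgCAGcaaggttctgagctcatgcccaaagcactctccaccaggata
Grik3: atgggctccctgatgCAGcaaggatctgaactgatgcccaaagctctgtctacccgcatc
Grik4: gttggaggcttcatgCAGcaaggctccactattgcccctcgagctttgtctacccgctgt
Grik5: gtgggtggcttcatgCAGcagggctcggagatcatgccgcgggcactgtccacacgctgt
The Grik4 stretch (chr9:42547581-42547640, minus strand) and the Grik5 stretch (chr7:25022455-25022514, minus strand) each lay within 1 exon. Those of Grik1 (chr16:87936078-87940559, minus strand), Grik2 (chr10:49240759-49244346, minus strand) and Grik3 (chr4:125691192-125693999, plus strand) crossed an exon junction. The codon was number 621 of the coding sequence in Grik1 and Grik2, 623 in Grik3, 606 in Grik4 and 605 in Grik5. Over these bases Grik1 and Grik2 were the most alike pair, at 86.7% identity. Grik4 and Grik5 were 71.7% identical, and Grik4 was least like Grik1 and Grik2, at 58.3% to each. Counts per gene do not keep the edited base, so recoding was not analysed here.

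Few stretches as long as a read were shared between genes. Of the 50-base windows along each reference transcript, none of Grik1, Grik5, Neto1 or Neto2 occurred in another gene. In Grik2, 0.597% of windows did, in Grik3 0.415% and in Grik4 0.326%. With up to 3 mismatches allowed, 33 to 70 windows of each subunit lay near a window of another member, and none of Neto1 or Neto2 did.

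The libraries held 39400980 to 65565479 counted reads each. Fmr1 had 1971 to 2608 reads in the WT libraries, 0 in 5 KO libraries and 1 read in the other, which matched the genotype label in every library. Rn45s, a ribosomal RNA precursor, took 0.448% to 3.88% of the reads of a library. The genotypes were compared with edgeR, which fits a count model to every gene, and a gene passed at a Benjamini-Hochberg adjusted p under 0.05. Of all tested genes, 4 passed, Fmr1 among them. With DESeq2, another count model, 84 passed, so the count over all genes depended on the test.

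Grik5 was by far the most abundant member. Levels are CPM, read counts brought to a common library size with edgeR's TMM scaling, and levels of different genes are compared per kilobase of reference transcript. Grik5 reached 43.1 CPM per kb on average over the 12 libraries (range 37.6 to 47.8). With the longest coding transcript of each gene, this was 10.3 times the level of the next member. Grik5 stood above that member in 12 of 12 libraries. Neto1 followed at 4.17 CPM per kb (2.91 to 5.31), Grik4 at 3.88 (3.32 to 4.55), Grik2 at 3.75 (3.17 to 4.18), Grik3 at 3.65 (2.32 to 4.66) and Neto2 at 3.13 (2.83 to 3.57). The ranges of these 5 genes overlapped from each neighbour to the next. Within libraries, Neto1 was above Grik4 in 7 of 12, Grik4 above Grik2 in 8 and Grik2 above Grik3 in 5, so the order of these 4 genes was not resolved. Neto2 was below Grik2 in 12 of 12 libraries, below Neto1 and Grik4 in 11 each and below Grik3 in 10. Grik1 was lowest at 1.04 CPM per kb (0.763 to 1.27), and Neto2, the next above it, was 3.002 times as high with no overlap.

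The middle of this order and the gap below Grik5 also depended on transcript length, and counts per gene do not say which isoform was read. The longest transcript had 3763 bases in Grik5, against 8352 in Neto1, 8973 in Grik3 and 9427 in Grik2. With the shortest coding transcript of each gene in place of the longest, Grik2 moved to second place and Grik4 stood at 6.70 CPM per kb. The member next below Grik5, at 43.1 CPM per kb, was then Grik2 at 13.6, in place of Neto1 at 4.17. Grik3, Grik5, Neto1 and Neto2 each had only 1 such transcript, so their levels could not move. Only Grik1, Grik2 and Grik4 had a second length, and with it Grik5 stayed highest and Grik1 lowest.

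**Figure D1:**
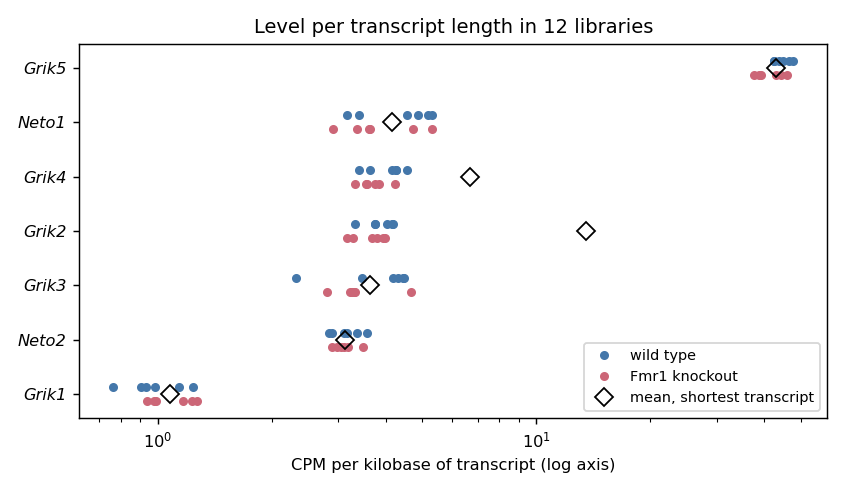
Level of each member in CPM per kilobase of transcript on a log axis, 1 point per library (WT above, KO below each line) and a diamond for the mean computed with the shortest coding transcript. Grik5 lies between 37.6 and 47.8 and Grik1 between 0.763 and 1.27, apart from the 5 genes between them, and the diamonds of Grik2 and Grik4 lie away from their points.

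Grik5 accordingly made up most of the summed subunit mRNA, 77.8% ± 1.90 (SD, n = 6) in WT and 77.7% ± 2.16 (SD, n = 6) in KO. Together with Grik4, the high-affinity subunits made up 84.8% ± 1.30 in WT and 84.6% ± 2.03 in KO. With the shortest transcripts the latter share was 73.3% in WT and 73.0% in KO. The subunits able to form channels alone, Grik1 to Grik3, held 15.2% ± 1.30 of the sum in WT and 15.4% ± 2.03 in KO with the longest transcripts, and 26.7% and 27.0% with the shortest. Grik5 alone held 63.4% in WT and 63.2% in KO with the shortest transcripts. The genotypes overlapped in the shares from the longest transcripts, and their means lay closer together than 1 SD. Of the Neto mRNA, Neto1 held 57.8% ± 6.44 in WT and 55.2% ± 5.36 in KO.

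**Figure D2:**
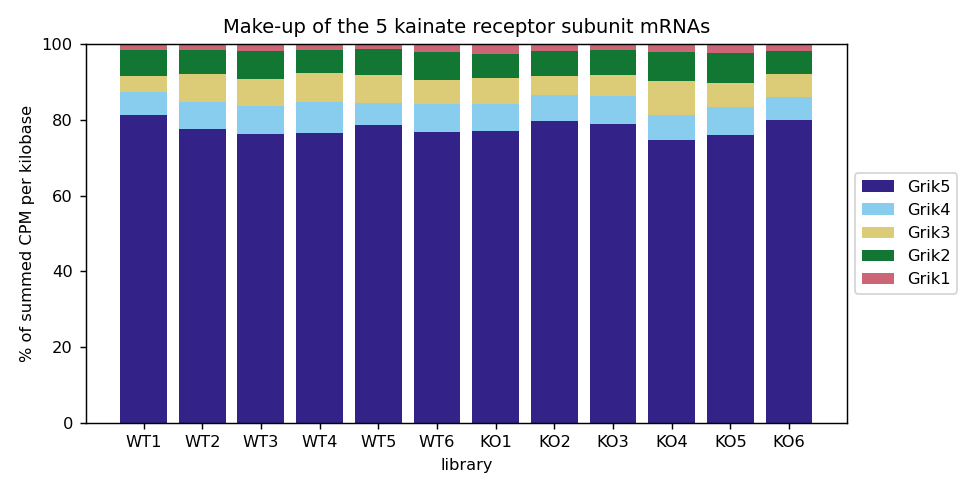
Share of each subunit in the summed CPM per kilobase of Grik1 to Grik5, in percent, 1 stacked bar per library. Grik5 fills 74.5% to 81.2% of every bar, and the KO bars fall within or close to the range of the WT bars.

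None of the 7 members differed between the genotypes in edgeR's test (adjusted p 0.724 to 0.986 with Benjamini-Hochberg adjustment over all genes), where 0.0224% of all tested genes passed. None passed in DESeq2 either, where 0.471% did. At an unadjusted p under 0.05 there was again no member, against 7.96% of all genes. All members but Grik1, 6 genes, were fitted lower in KO, while 48.6% of all genes were, and the median log2 fold change was -0.11 over the members and 0.0042 over all genes tested. This lean was not particular to the members. Of the other glutamate receptor subunits, 3 of 4 AMPA, 5 of 7 NMDA and 2 of 2 delta subunits were also fitted lower in KO. Their median log2 fold changes were -0.09, -0.08 and -0.08. The median size of the change was 0.12 for the members and 0.10 for all genes. In pooled tissue, fewer cells carrying an mRNA and less of it per cell cannot be told apart.

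**Figure D3:**
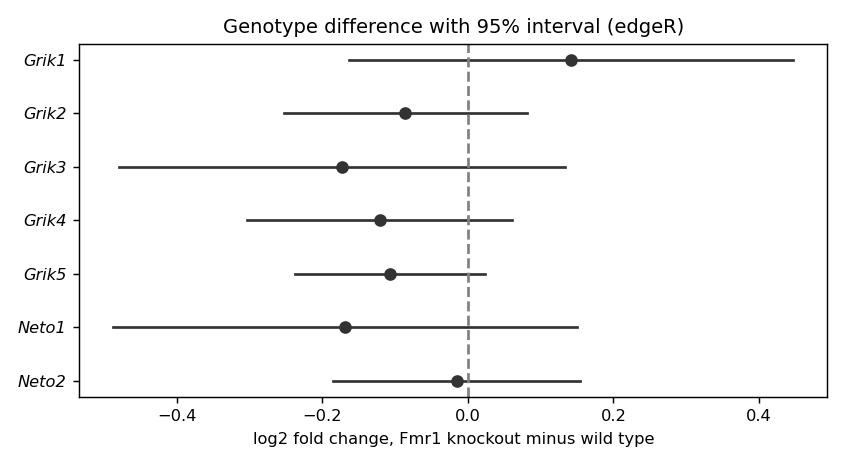
Log2 fold change of each member, KO minus WT, from edgeR (points) with its 95% interval (lines), and a dashed line at 0. Every interval spans 0, the narrowest being that of Grik5 (-0.24 to 0.02) and the widest that of Neto1 (-0.49 to 0.15).

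Grik1 (chromosome 16, 87895901 to 88290863), whose subunit is best known from interneurons, had the fewest reads of the members, 110 to 294 per library. Its lowest, median and highest levels were 2.79, 3.50 and 4.52 CPM in WT and 3.42, 3.94 and 4.63 CPM in KO. The KO median was above that of WT, but only 4 WT libraries lay below the KO median, and the highest WT library lay inside the KO range. Grik1 was fitted higher in KO by a log2 fold change of 0.14 (SE 0.14, edgeR adjusted p = 0.883). The 95% interval ran from 89.3% to 136% of the WT level. The log2 fold change of Grik1 was 0.08 without WT5 and 0.21 without WT6, and the adjusted p over its 19 alternatives ran from 0.753 to 0.987.

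Grik2 (chromosome 10, 49093680 to 49790161), which encodes the principal subunit at mossy fibre synapses, reached 31.4, 36.7 and 39.4 CPM as lowest, median and highest in WT. In KO these were 29.8, 35.3 and 37.5 CPM. The groups overlapped over most of their ranges, and the log2 fold change was -0.09 (SE 0.08, edgeR adjusted p = 0.862), with an interval of 83.9% to 106% of WT. Without KO1 it was -0.05, and over the 19 alternatives the adjusted p of Grik2 ran from 0.707 to 0.987.

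Grik3 (chromosome 4, 125490259 to 125714173) was one of the 2 most variable members. In WT it ran from 20.8 CPM over a median of 38.1 to 40.1, and in KO from 25.1 over 29.5 to 41.8. The lowest value of all was library WT1 and the highest was KO4, while 5 KO libraries lay between 25.1 and 29.8 CPM and 5 WT libraries between 31.1 and 40.1. The log2 fold change was -0.17 (SE 0.15, edgeR adjusted p = 0.840) with an interval of 71.7% to 110% of WT. Without WT1 it was -0.28 (adjusted p = 0.518) and without KO4 it was -0.28 (adjusted p = 0.582). The adjusted p of Grik3 over its 19 alternatives ran from 0.518 to 0.988.

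Grik4 (chromosome 9, 42518182 to 42945000) ran from 20.1 CPM over a median of 24.8 to 26.8 in WT and from 19.5 over 21.6 to 25.02 in KO. Its log2 fold change was -0.12 (SE 0.09, edgeR adjusted p = 0.802), and the interval reached from 81.1% to 104% of WT. The WT libraries split into 4 at 24.5 CPM or more and 2 at 21.4 CPM or less. The latter 2 and WT6, at 24.5 CPM, lay inside the KO range.

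Grik5 (chromosome 7, 25009849 to 25075694) had the deepest counts of the members, 6414 to 9501 reads per library, and the smallest spread. It ran from 159.7 CPM over 166.9 to 180.0 in WT and from 141.6 over 154.6 to 173.3 in KO. In KO, 3 libraries lay at 147.5 CPM or less, under every WT library, and the other 3 lay inside the WT range. The log2 fold change was -0.11 (SE 0.06, edgeR adjusted p = 0.724), the smallest unadjusted p among the members at 0.101. A loss of Grik5 below 84.8% of the WT level lay outside its 95% interval, whose other end was 102%.

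Neto1 (chromosome 18, 86394815 to 86506721), which is known as an auxiliary protein of both kainate and NMDA receptors, varied as much as Grik3. In WT it ran from 26.4 CPM over a median of 39.4 to 44.2, and in KO from 24.3 over 30.3 to 44.3. In all, 4 WT libraries and 2 KO libraries lay at 38.0 CPM or more, and the other 6 lay at 30.3 CPM or less. The log2 fold change was -0.17 (SE 0.15, edgeR adjusted p = 0.854), with an interval of 71.3% to 111% of WT, and it was -0.27 without KO4 (adjusted p = 0.607). Without KO1 it was -0.10 and without WT3 -0.11, and over the 19 alternatives the adjusted p ran from 0.607 to 0.988.

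Neto2 (chromosome 8, 85636718 to 85700952) differed least. It ran from 15.9 CPM over 17.6 to 20.02 in WT and from 16.2 over 17.3 to 19.5 in KO, and the KO range lay inside the WT range. The log2 fold change was -0.02 (SE 0.08, edgeR adjusted p = 0.986), and a change beyond 87.9% to 111% of WT was outside its interval.

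**Figure D4:**
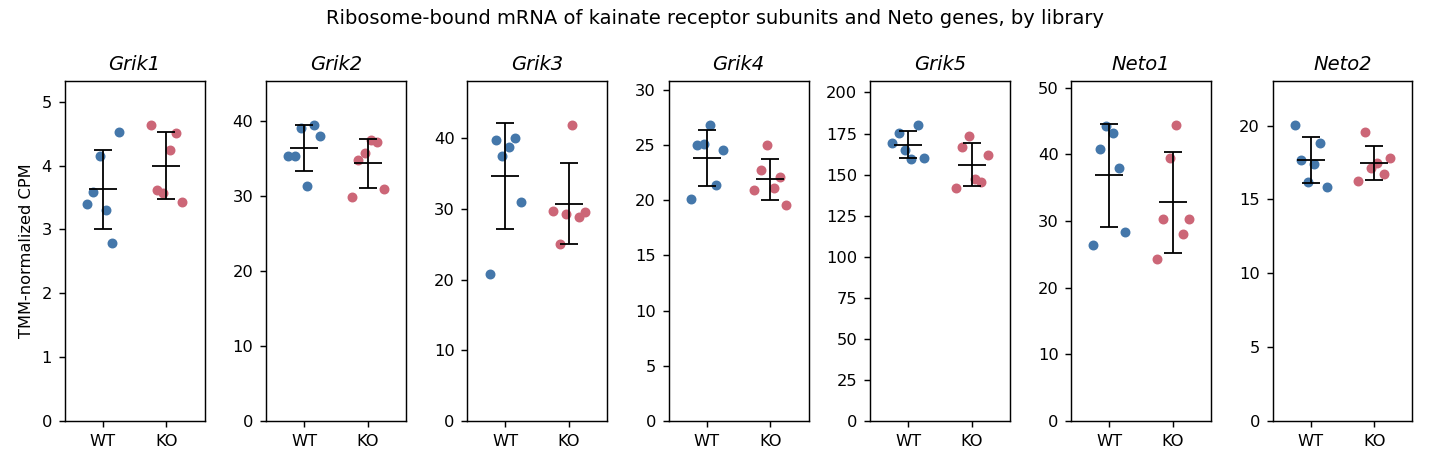
TMM-normalized CPM of each member on its own axis starting at 0, 1 point per library, with horizontal lines for the mean and error bars of 1 SD (n = 6 per genotype). The groups overlap in all 7 panels, and in the Grik3 panel 1 WT point at 20.8 and 1 KO point at 41.8 stand apart from their groups.

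The members differed in their spread between libraries. Within a genotype the coefficient of variation was 21.9% for Neto1, 20.5% for Grik3 and 15.1% for Grik1, and 6.69% to 9.77% for the other 4 genes. Counting error alone would give 7.60% for Grik1, and 3.49% or less for the rest. The median over the 7382 genes of 10 to 100 CPM was 10.5%, so of the members in that range Grik3 and Neto1 lay above it and Grik2, Grik4 and Neto2 under it.

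Deviations from the genotype means were compared across the 12 libraries for all 21 pairs of members, on log2 CPM. Grik3 and Neto1 had the highest Pearson correlation, r = 0.76 (Spearman's rho = 0.64, permutation p = 0.00607 and 0.0277, adjusted over the 21 pairs 0.0787 and 0.194, two-sided). Leaving out WT1 and KO4, the libraries farthest from the median of Grik3, r was 0.57, and within genotypes it was 0.87 in WT and 0.64 in KO. Grik1 moved opposite to Grik5 with r = -0.75 (rho = -0.72, permutation p = 0.0075 and 0.0153, adjusted 0.0787 and 0.161), and r was -0.73 without WT5 and WT6. Grik1 and Neto2 had r = -0.73 (rho = -0.73, permutation p = 0.014 and 0.0125, adjusted 0.0983 and 0.161), and -0.64 without the same libraries. No pair passed an adjusted p of 0.05 by either measure. The 2 genes of a pair share library, depth and scaling, whose part was not tested.

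**Figure D5:**
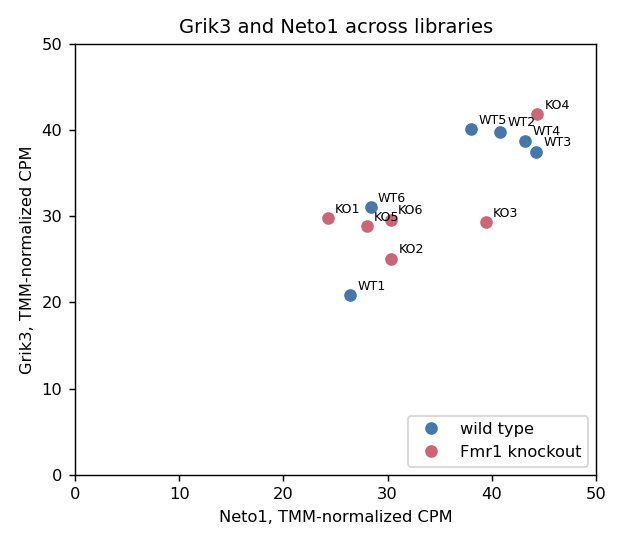
Grik3 against Neto1 in TMM-normalized CPM, 1 labelled point per library, coloured by genotype, with both axes from 0. Library KO4 lies at the upper right, above every WT library on both axes (41.8 and 44.3 CPM), and WT1 lies at the lower left (20.8 and 26.4 CPM), with less Grik3 than any KO library.

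Among 13761 other genes of at least 1 CPM, the one most like each member over the 12 libraries was named by its Pearson correlation of the same deviations. For Neto1 it was Arsj (r = 0.98, rho = 0.98), for Grik3 Kcnn3 (r = 0.97, rho = 0.93), a calcium-activated potassium channel, and for Grik5 Crtc1 (r = 0.96, rho = 0.97), a CREB coactivator. Grik4 was followed by Rdh12 (r = 0.88), Grik1 by Fbxw10 (r = 0.87), Grik2 by Gm5468 (r = 0.87) and Neto2 by Fasn (r = 0.81), the fatty acid synthase. These are the best of many and describe these libraries. The number of genes at r of 0.9 or more differed widely, with 365 genes (2.65%) for Neto1, 34 for Grik3, 2 for Grik5 and 0 for each of the other 4 members. At r of -0.9 or less there were 201 genes for Neto1, 62 for Grik3, 4 for Grik5, 1 for Grik1 and 0 for the other 3. Such counts were not made for genes outside the members, so whether those of Neto1 and Grik3 are unusual was not tested.

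Of 26 genes known to bind, traffic, modify or edit kainate receptors, 0 passed in edgeR or DESeq2, with 9 fitted higher and 17 lower in KO. At an unadjusted p under 0.05 there were 4 of them (15.4%, against 7.96% of all genes). The 3 with the smallest p were Nrxn3, a presynaptic neurexin that joins kainate receptors through C1q-like proteins, Prkca, a protein kinase C, and Klhl17 (actinfilin), which targets GluK2 for degradation. Nrxn3 stood at 169 ± 9.51 CPM in WT and 144 ± 12.5 CPM in KO (SD, n = 6), a log2 fold change of -0.23 (edgeR adjusted p = 0.301). Prkca had a log2 fold change of -0.17 and Klhl17 one of 0.29, both with an edgeR adjusted p of 0.542.

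Among the ionotropic glutamate receptor families, kainate subunits lay below AMPA and NMDA and above delta subunits. These sums used the longest transcripts only, and sums and ratios with the shortest were not computed. The summed level of the kainate subunits was 57.4 ± 2.45 CPM per kb in WT and 53.4 ± 3.38 in KO (SD, n = 6). The AMPA subunits summed to 423 ± 17.8 and 384 ± 26.8 CPM per kb, 6.76 to 8.13 times the kainate sum within a library. The NMDA subunits summed to 172 ± 15.2 and 167 ± 12.6 CPM per kb, 2.75 to 3.39 times the kainate sum. Both families were above kainate in 12 of 12 libraries. The delta subunits summed to 8.40 ± 0.475 and 7.64 ± 0.607 CPM per kb, below kainate in every library. None of these 13 AMPA, NMDA and delta subunits passed in edgeR or DESeq2. Grin3b, fitted higher in KO, had 0 to 6 reads per library, and DESeq2 gave it no adjusted p. In edgeR, 5 of the 13 (38.5%) had an unadjusted p under 0.05, against 7.96% of all genes. Of these 5, Gria1, Gria2, Grin2a and Grin2b were fitted lower in KO and Grin2c higher (log2 fold change 0.32). Grin2a, an NMDA receptor subunit, had the smallest p, at 25.8 ± 3.48 CPM in WT and 18.6 ± 4.73 in KO (log2 fold change -0.47, SE 0.14, edgeR adjusted p = 0.335).

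Markers of other cells were present in all precipitates, and no defining marker was at 0. All 8 CA1 pyramidal markers were fitted lower in KO (summed 8396 to 10422 CPM in WT, 8105 to 9636 in KO). All 7 astrocyte markers (1865 to 2168 and 1992 to 2915 CPM) and all 5 endothelial markers (25.8 to 40.1 and 35.7 to 50.8 CPM) were fitted higher. Of the 12 interneuron markers, 5 were fitted higher and 7 lower, with sums of 320 to 521 CPM in WT and 344 to 443 in KO. The CA3 and CA2 markers split 3 higher to 3 lower, the dentate granule markers 1 to 5, the oligodendrocyte markers 1 to 5, their precursors 4 to 1 and the microglia markers 4 to 2. None of these markers passed in edgeR or DESeq2. Ttr, a choroid plexus gene outside these lists, took 0.591% to 1.13% of the reads of a WT library and 0.776% to 1.69% in KO. No list of choroid plexus markers was compared. The part of any of these genes in the members' levels was not tested.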

How the data were processed

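The authors deposited raw read counts per gene for 12 libraries, without normalization. Per the methods of the study, stranded 50-base reads were sequenced with 4 libraries per lane, and which libraries shared a lane is not given in the sources used here, so lane and genotype could not be compared. The submitters' processing notes name bcl2fastq 2.17, Bowtie2 2.2.8, TopHat2 2.1.1 and HTSeq 0.6.1p1, and the build mm10.

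Genes with at least 15 reads in total were tested with edgeR 4.0.16 in R 4.3.3 (TMM, quasi-likelihood fit, two-sided, no covariate), with Benjamini-Hochberg adjustment over all genes and a threshold of 0.05. The SE is the size of the log2 fold change divided by the square root of F, and intervals use the t distribution of the fit. CPM is TMM-normalized. CPM per kb used the longest, or as an alternative the shortest, CCDS transcript of GENCODE vM21. Gene coordinates are GRCm38. Correlations used log2 CPM with a prior count of 2 and 100000 permutations within genotype. The fit was tested on simulated data.

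Replicates of a genotype differed by more than sampling noise, and each was counted as 1 sample. Alternatives were DESeq2 1.42.0, limma 3.58.1 voom, other scalings and filters, a replicate block, and each library left out. The genes named were the members, Fmr1, the 3 kainate partners and the 1 other receptor subunit of smallest p where none passed, and the gene most like each member. Rn45s and Ttr were named to describe the libraries. Other receptor subunits were named for the direction of their change or for low counts. The members and lists, cell type markers included, were chosen with earlier results of these data known, and C1ql2 and Camk2a stand both among the partners and among the markers.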

Additional observations from a re-analysis of the deposited data

Results flagged for a closer look

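In 18 groups of 6 libraries (each member, the high-affinity share and the Neto1 share, by genotype), 2 had a library far from the others by Dixon's ratio, the gap to the nearest library over the whole range, and about 0.9 would be flagged by chance. For Grik3 in KO, library KO4 stood at 41.8 CPM above the others at 25.1 to 29.8 CPM (ratio 0.719). For the share of Grik4 and Grik5 among the subunits in WT, library WT1 stood at 87.4% above the others at 83.5% to 84.7% (ratio 0.694). WT1 also had the lowest WT level of Grik3, at 20.8 CPM (ratio 0.531). Grik3 is part of the sum behind that share, so this is not a separate observation. The Grik3 share was 4.19% in WT1 and 6.24% to 7.78% in the other WT libraries.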

How the results depend on the processing

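No member passed the threshold under any alternative run. Of 133 fold changes of members under alternatives, 129 kept their direction. The 4 that turned were all of Neto2, whose log2 fold change of -0.02 became 0.0085 with no scaling beyond library totals and ran from -0.0498 to 0.0241 when single libraries were left out, turning without KO1, WT1 or WT5. The count of all genes past the threshold was 4 in edgeR, 84 with DESeq2's test and 2 to 6 without single libraries, with 2 left without KO1, KO4, KO5, KO6, WT4, WT5 or WT6. The cause was not tested. In the fit with a replicate block 4 genes and 0 members passed, and the log2 fold change of Grik5 was -0.11 and of Grik3 -0.16. Same-numbered libraries of the genotypes did not deviate together (correlations -0.081 to 0.090). These values cannot tell whether the pools were paired by number. The level per kb of Grik2 and Grik4 moved with the transcript length, while Grik3, Grik5, Neto1 and Neto2 had only 1 length. Grik1, at 110 to 294 reads per library, had the largest counting error of the members, 7.60% against a spread of 15.1% between libraries.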
